A study of Mus musculus with 12 samples.

Results

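The genes described here encode the receptor for thymic stromal lymphopoietin (TSLP) and the JAK kinases and STAT factors that act downstream of it, together with the common gamma chain of the related IL-7 receptor. They were taken by symbol from a table of RNA-seq read counts: Il7r, Crlf2, Il2rg, Jak1, Jak2, Stat3, Stat5a, Stat5b and Stat6, that is 9 of 31301 named genes. All 9 were among the 10861 genes that had enough counts to be tested.

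TSLP is an epithelial cytokine that acts on basophils, mast cells and dendritic cells. It binds a heterodimer of the TSLP receptor chain, encoded by Crlf2, and the IL-7 receptor alpha chain, encoded by Il7r. The 2 chains carry JAK2 and JAK1, which phosphorylate STAT proteins, above all STAT5A and STAT5B. IL-3 signals through a different receptor, made of its own alpha chain and the common beta chain, but also uses JAK2 and STAT5. Active STAT5 induces inhibitors of the SOCS family, and these feed back on the receptors and kinases.

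Bone marrow cells of wild-type C57BL/6J mice were cultured for 7 days with IL-3 at 0.3 ng/mL or with TSLP at 1 µg/mL, which gives rise to bone marrow-derived basophils. FcεRIα-high CD49b-low cells, called immature, and FcεRIα-low CD49b-high cells, called mature, were then sorted from each kind of culture. Each cytokine thus has an immature and a mature group, named below as IL-3 immature and so on, and each of the 4 groups has 3 libraries. The labels do not say whether these came from separate mice, so p-values measure the spread between libraries only, and no library of uncultured cells or of cells without either cytokine enters the comparisons.

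The libraries held between 1720065 and 3685285 counts. All 10 basophil markers were above 10 CPM in every group, and the mast cell gene Kit had 0 to 4 counts per library. CPM levels are counts per 1000000 counts of the library, after TMM scaling of library sizes. Itga2, which encodes CD49b, was at 22.5 to 31.0 CPM in IL-3 immature and 192 to 309 CPM in IL-3 mature libraries. With TSLP, Itga2 was at 81.5 to 89.1 CPM in immature libraries and at 96.9, 209 and 199 CPM in mature replicates 1, 2 and 3. TSLP mature replicate 1 stood apart from the other TSLP mature libraries: its 10 neutrophil markers summed to 824 CPM against 40.3 and 47.9 CPM, its 10 macrophage and dendritic cell markers to 1425 CPM against 589.5 and 636 CPM, and its 13 B lineage markers to 211.5 CPM against 27.2 and 27.7 CPM. Results that rest on this library are therefore also given without it. The ribosomal RNA genes Rn45s, Rn18s and Rn28s1 together held 14.7% to 25.0% of the counts in IL-3 libraries and 17.3% to 40.1% in TSLP libraries. Rn45s alone held 7.43% to 12.5% with IL-3 and 8.68% to 20.2% with TSLP. Rn18s and Rn28s1 together held nearly as many counts as Rn45s in each library, so the same reads may have been counted to both. The part of these genes in the results below was tested only by leaving them out.

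Among the 9 genes, STAT5A and STAT5B are encoded by a tandem pair on chromosome 11 of GRCm38. Stat5b (100780731 to 100850724, minus strand) and Stat5a (100859351 to 100885169, plus strand) lie 8626 bases apart, and the Stat3 gene (100885098 to 100939540, minus strand) overlaps the end of Stat5a by 72 bases. The coding sequences of Stat5a and Stat5b were identical at 90.7% of 2346 aligned bases, with a longest identical run of 324 bases. The stretches around the codon for the tyrosine that JAKs phosphorylate are shown as an example of where the 2 genes differ. The codon lies in exon 18 of Stat5a (100881755 to 100881757) and in exon 17 of Stat5b (100784285 to 100784287), and capitals mark the 10 of 63 bases that differ.
Stat5a: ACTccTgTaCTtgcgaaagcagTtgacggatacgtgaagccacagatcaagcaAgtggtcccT
Stat5b: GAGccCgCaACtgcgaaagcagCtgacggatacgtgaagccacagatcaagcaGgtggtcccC
Of the 50-base stretches of the reference transcripts, 16.4% in Stat5a occurred also in Stat5b or Stat3, and 11.8% in Stat5b occurred also in Stat5a. How reads from such stretches were assigned is not given in the sources used here, so a part of the Stat5a and Stat5b counts is uncertain.

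The other 6 genes lay on 6 further chromosomes. Il7r is at chromosome 15, 9505788 to 9530176 on the minus strand, and Crlf2 at chromosome 5, 109554709 to 109558993 on the minus strand. Il2rg is at chromosome X, 101264378 to 101268255 on the minus strand, where 42.0% of the 50-base stretches of its transcript also belong to a read-through gene model, Gm20489, on the same strand, so its count is uncertain too. Jak1 (chromosome 4, 101152367 to 101265282, minus strand) and Stat6 (chromosome 10, 127642986 to 127660957, plus strand) share exon bases with Raver2 and Nab2, which run on the other strand, and reads of such a pair are separable only if counting used strand. Jak2 is at chromosome 19, 29251828 to 29313080 on the plus strand.

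Il7r was the member whose level varied most. Its level in the 3 IL-3 immature libraries was 10.7, 9.14 and 4.64 CPM, after TMM scaling of library sizes, against 263, 259 and 232 CPM when mature. In TSLP immature cells it was 38.2, 32.0 and 31.7 CPM, and in TSLP mature cells 82.6, 94.2 and 76.6 CPM. No 2 groups overlapped, and mature cells were above immature cells under either cytokine, with the TSLP groups lying between the IL-3 groups.

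Il7r was 31.2-fold lower in immature than in mature cells of IL-3 cultures, a log2 difference of -4.96 ± 0.25 (SE; edgeR quasi-likelihood test over all 10861 genes, Benjamini-Hochberg adjusted p = 6.62e-10). In TSLP cultures the same comparison gave -1.31 ± 0.21 (2.48-fold; adjusted p = 0.000211, edgeR). Between cytokines the gene went in opposite directions at the 2 stages: it was 4.23-fold higher with TSLP among immature cells (log2 2.08 ± 0.24, adjusted p = 5.25e-05, edgeR) and 2.97-fold lower with TSLP among mature cells (log2 -1.57 ± 0.20, adjusted p = 0.000138, edgeR). The order of levels was IL-3 immature, TSLP immature, TSLP mature and IL-3 mature, and every pair of neighbours in it differed.

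The stage difference of Il7r itself differed between cytokines by 3.65 ± 0.31 on the log2 scale (95% interval 2.99 to 4.32; adjusted p = 8.35e-06, edgeR). This is the test of interaction, in which 4.19% of all tested genes were called, and Il7r was the only member called of 9. By size of this interaction it ranked 57 of the 10861 genes. Averaged over both stages, Il7r did not differ by cytokine beyond the threshold (log2 0.25 ± 0.16, 95% interval -0.07 to 0.58, adjusted p = 0.229, edgeR), since the 2 opposite differences entered the mean.

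In these bulk samples, a smaller share of cells with a transcript and less of it per cell cannot be told apart. Il7r is also a gene of B cell precursors, so the 13 B lineage markers were set beside it. With IL-3 their summed level was 7.28 to 9.70 CPM in immature and 4.01 to 4.99 CPM in mature libraries, and with TSLP 43.0 to 48.0 CPM in immature and 27.2 to 211.5 CPM in mature libraries. In IL-3 mature cells, where Il7r was highest, none of the 13 markers was above 10 CPM and Vpreb1, Igll1, Rag1 and Dntt were among those with no count. In TSLP immature libraries 1 of the 13 was above 10 CPM and Vpreb1, Rag2 and Dntt had no count, and in TSLP mature libraries 3 were above 10 CPM and none was at 0. Without TSLP mature replicate 1, 0 of the 13 were above 10 CPM in TSLP mature cells, and Vpreb1, Igll1 and Dntt had no count. TSLP mature replicate 1, with the highest B lineage level, had an Il7r level between those of the other TSLP mature libraries. The part of such cells in the Il7r level of TSLP cultures was not tested.

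**Figure D1:**
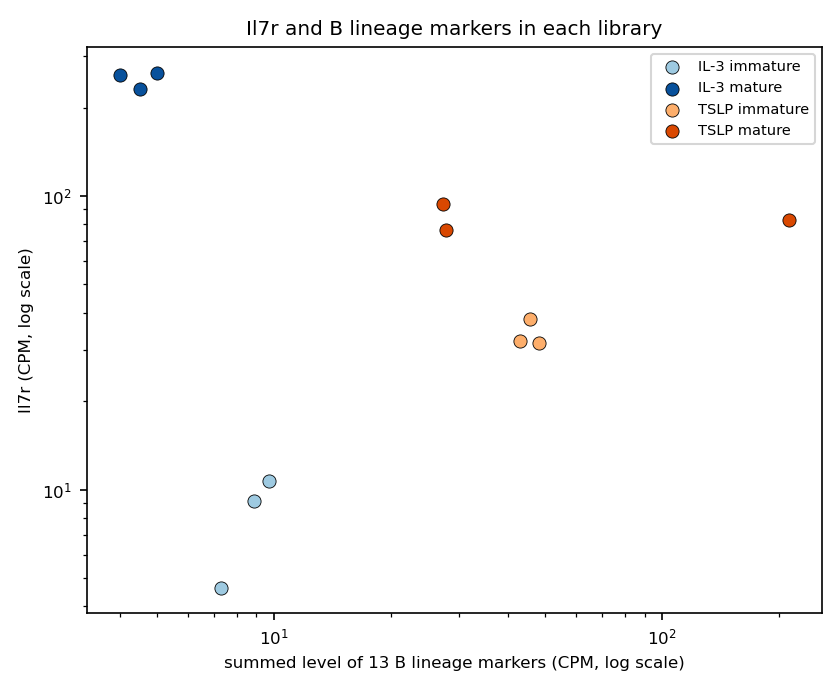
Each point is 1 of 12 libraries, with the summed level of 13 B lineage markers on the x axis and Il7r on the y axis, both in CPM on log scales, coloured by group. The IL-3 mature libraries have the highest Il7r (232 to 263 CPM) and the lowest marker sums (4.01 to 4.99 CPM), and the TSLP mature library at 211.5 CPM of markers has Il7r at 82.6 CPM.

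T cells and innate lymphoid cells use Il7r as well. Their 10 marker genes summed to 573 to 1367 CPM over the 12 libraries, with 3 of the 10 above a mean of 10 CPM in IL-3 immature cells and 2 in each other group. Most of the sum was Il1rl1 (550 to 1321 CPM), the IL-33 receptor chain, which basophils use as well. Rora, a factor of innate lymphoid cells, was at 10.5 to 36.5 CPM in every library, and Thy1 at 12.9 to 15.2 CPM in IL-3 immature and 1.54 to 12.3 CPM in the other libraries. Cd3e had no count in both IL-3 groups, Cd3g none in TSLP immature cells, Ncr1 none in IL-3 immature and TSLP mature cells, and Klrb1c none in IL-3 immature cells and both TSLP groups. The part of these cells in the result was not tested either.

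The promoter of Il7r was the only promoter among those of the 9 genes with a match to TTCNNNGAA, the core that STAT5 dimers recognise. The RefSeq promoters (GRCm38.p6, 250 bases before to 50 bases after each start, both strands alike because the motif is palindromic) matched all 9 genes, with 2 entries each for Stat5a and Stat5b. The match begins 142 bases before the RefSeq start of Il7r, at chr15:9530010-9530018 on the minus strand, within an intron of the longer GENCODE gene model. It is shown with its flanks, at chr15:9529999-9530028, and capitals mark the match.
Il7r: gttcaggagcTTCAGGGAAtaccaagatgc
Of all 32851 RefSeq promoters of this length, 8.30% held TTCNNNGAA. The spacing preferred by STAT6, TTCNNNNGAA, was in 6.95% of them and in none of the 9 genes' promoters. A match is a description of the letters only, and no binding data enter here.

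Crlf2 was the member that varied least. Its levels were 62.6, 80.3 and 76.1 CPM in immature and 93.0, 75.8 and 71.3 CPM in mature libraries with IL-3, and 80.9, 89.5 and 100.1 CPM in immature and 113, 70.1 and 109 CPM in mature libraries with TSLP. The stages overlapped under both cytokines. The test of any difference among the 4 groups called 60.8% of all tested genes and 8 of the 9 members, Crlf2 being the exception (adjusted p = 0.266, edgeR). The number of members called was 7 without the ribosomal RNA gene Rn45s and with a filter of 10 CPM. On leaving out single libraries it was 7 to 8. The stage difference of Crlf2 was -0.13 on the log2 scale with IL-3 (95% interval -0.56 to 0.30) and -0.11 with TSLP (95% interval -0.53 to 0.31), so a difference of up to about these bounds is not excluded.

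The 2 chains of the TSLP receptor therefore stood in different proportion in each group. The ratio of Il7r to Crlf2 counts was 0.0609 to 0.171 in IL-3 immature libraries, 0.316 to 0.472 in TSLP immature, 0.701 to 1.34 in TSLP mature and 2.83 to 3.41 in IL-3 mature. These ranges did not overlap. Per kilobase of transcript, which makes levels of different genes comparable, Il7r was at 2.30 ± 0.89 CPM per kb in IL-3 immature cells (SD, n = 3), the lowest of the 9 genes, where Crlf2 at 55.2 ± 7.00 CPM per kb was the highest. In IL-3 mature cells Il7r was at 71.0 ± 4.69 CPM per kb and Crlf2 at 60.5 ± 8.66. In the TSLP groups Il7r, at 9.59 ± 1.03 and 23.9 ± 2.53 CPM per kb in immature and mature cells, was below Crlf2, at 68.1 ± 7.28 and 73.7 ± 18.0. RNA was captured by its poly(A) tail, and how evenly reads covered the transcripts is not given, which limits comparisons between genes.

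Il2rg encodes the common gamma chain, which pairs with the IL-7 receptor alpha chain to bind IL-7 and is not part of the TSLP receptor. It was at 80.0, 91.7 and 81.8 CPM in immature and 193, 178 and 146 CPM in mature libraries with IL-3, and 96.2, 107 and 88.9 CPM in immature and 116, 115 and 106 CPM in mature libraries with TSLP. Only the IL-3 mature libraries lay above all others. In IL-3 cultures Il2rg was 2.04-fold lower in immature than in mature cells (log2 -1.03 ± 0.16, adjusted p = 8.93e-05, edgeR).

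In TSLP cultures the stages of Il2rg did not differ beyond the threshold (log2 -0.20 ± 0.16, 95% interval -0.55 to 0.14, adjusted p = 0.390, edgeR). Among mature cells it was 1.54-fold lower with TSLP (log2 -0.62 ± 0.16, adjusted p = 0.0122, edgeR). Without IL-3 mature replicate 1 this difference of Il2rg was -0.53 and missed the threshold (adjusted p = 0.0554, edgeR). Its interaction, 0.82 ± 0.23 on the log2 scale, was just short of the threshold (95% interval 0.34 to 1.31, adjusted p = 0.0549, edgeR) and passed it in 6 of 20 alternative settings. These included the fits without TSLP mature replicate 1 (0.90, adjusted p = 0.0255, edgeR) and without IL-3 mature replicate 3 (0.95, adjusted p = 0.0493, edgeR). In the order of levels, the first 3 groups (IL-3 immature, TSLP immature, TSLP mature) were not called between neighbours, and IL-3 mature differed from its neighbour.

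**Figure D2:**
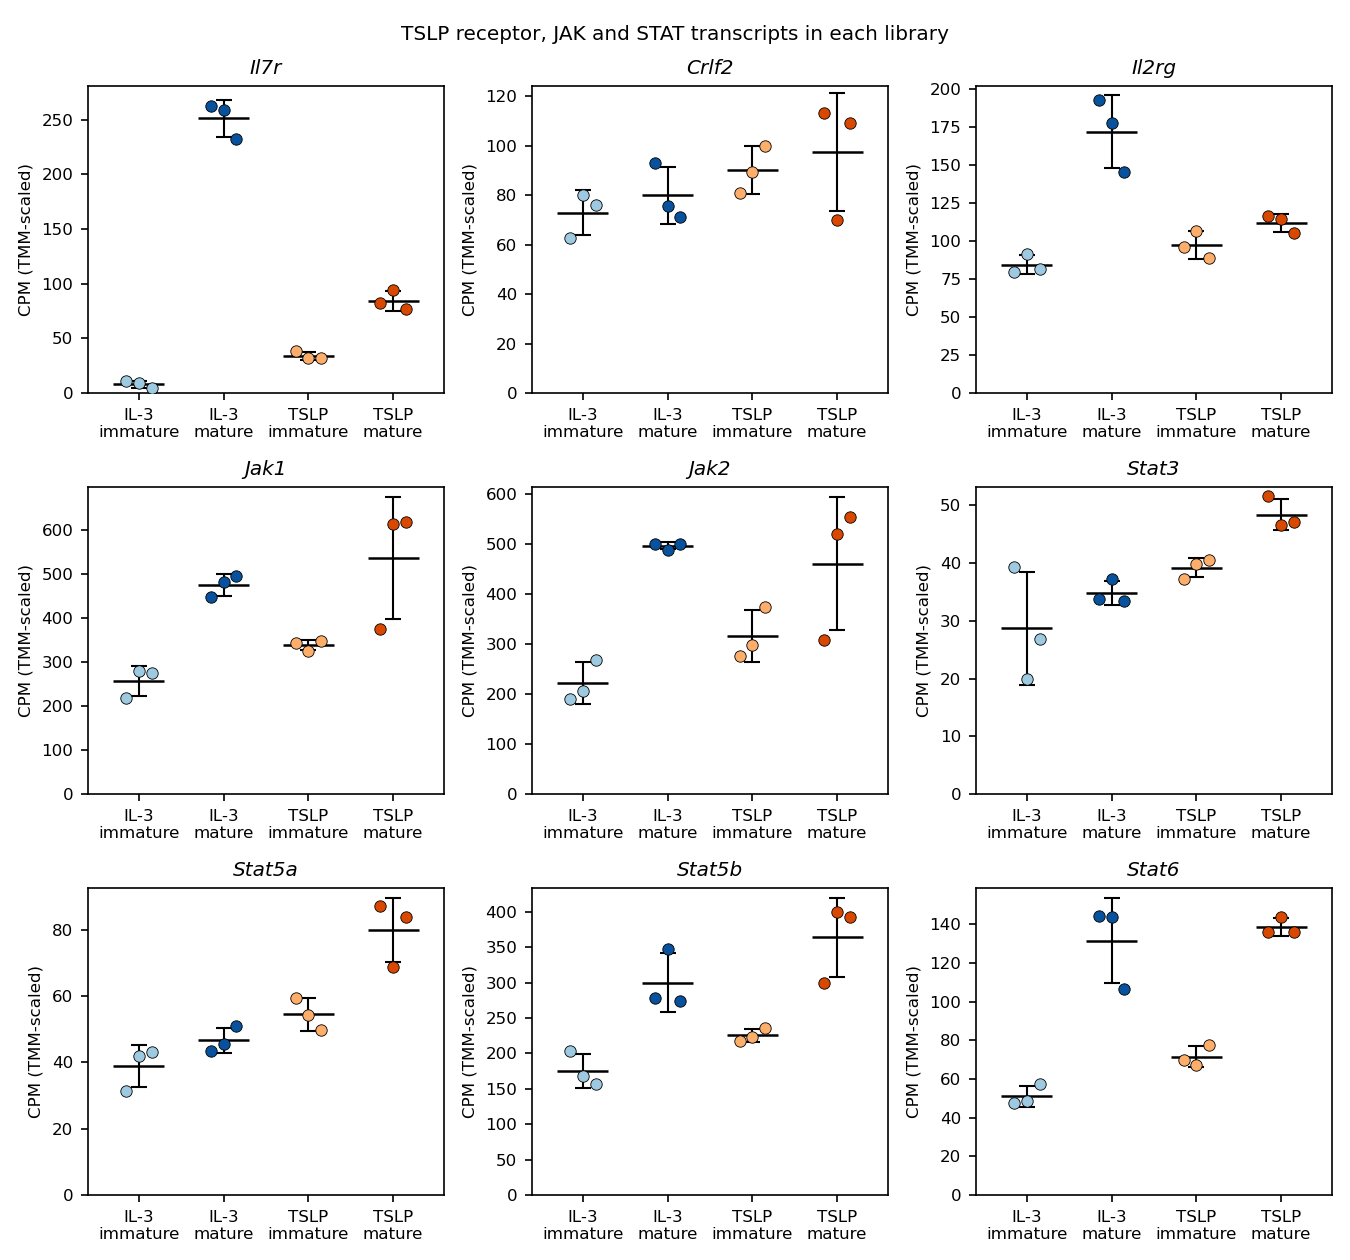
TMM-scaled CPM of each of the 9 genes in each library, on linear axes from 0. Points are libraries, horizontal lines group means and error bars the SD of 3 libraries. Il7r ranges from 4.64 to 263 CPM with no overlap between groups, Crlf2 overlaps between stages, and in Jak1, Jak2 and Stat5b 1 TSLP mature library lies below the other 2.

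Jak1 and Jak2, the kinases bound to the 2 receptor chains, were higher in mature cells of IL-3 cultures. Jak1 was at 218, 280.2 and 275 CPM in the immature and at 448, 482 and 497 CPM in the mature libraries of these cultures. Jak2 was at 189.7, 206 and 269 CPM when immature and at 501, 488 and 501 CPM when mature. The stages did not overlap for either gene. Jak1 was 1.84-fold lower in immature cells (log2 -0.88 ± 0.20, adjusted p = 0.00181, edgeR) and Jak2 2.24-fold lower (log2 -1.16 ± 0.22, adjusted p = 0.000488, edgeR).

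In TSLP cultures both kinases were more variable. Jak1 was at 344, 326 and 348 CPM in TSLP immature and at 376, 615 and 618 CPM in TSLP mature libraries. Jak2 was at 276, 297 and 375 CPM in TSLP immature and at 308, 519 and 554 CPM in TSLP mature libraries. In both genes the low mature value belonged to TSLP mature replicate 1, the library with more neutrophil and B lineage transcripts. Jak1 was called (log2 -0.66 ± 0.20, adjusted p = 0.0216, edgeR), and Jak2 was not (log2 -0.54 ± 0.22, 95% interval -1.01 to -0.07, adjusted p = 0.0830, edgeR). Without TSLP mature replicate 1, Jak2 was called too (-0.67, adjusted p = 0.00781, edgeR).

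The call of Jak1 in TSLP cultures was lost without IL-3 mature replicate 2, without any of the 3 TSLP immature libraries and without TSLP mature replicate 2 or 3, at log2 differences of -0.60 to -0.48 and adjusted p of 0.0522 to 0.125 (edgeR). Neither kinase differed between cytokines among mature cells (Jak1 log2 0.17, 95% interval -0.24 to 0.59; Jak2 log2 -0.11, 95% interval -0.57 to 0.36). Among immature cells Jak1 was higher with TSLP by 0.39 and Jak2 by 0.51, short of the threshold (adjusted p = 0.202 and 0.139, edgeR), although the libraries of the 2 groups did not overlap for either gene. Without TSLP mature replicate 1, which entered only the shared estimate of spread and the scaling, this difference of Jak2 was 0.47 and was called (adjusted p = 0.0446, edgeR). The ratio of Jak2 to Jak1 counts lay between 0.735 and 1.12 in all 12 libraries. With all 12 libraries, no neighbours in the order of levels differed for Jak1 or Jak2. For Jak1 the nearest to a call were TSLP immature and IL-3 mature (adjusted p = 0.0601, edgeR). For Jak2 the neighbours IL-3 immature and TSLP immature were called without TSLP mature replicate 1, as given above.

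Per kilobase of transcript, Stat5b was higher than Stat5a in every group (33.7 to 69.9 against 9.99 to 20.6 CPM per kb), and the ratio of their counts was 3.44 to 7.63 over the 12 libraries. Stat5b was at 203, 168 and 157 CPM in immature and 278, 348 and 275 CPM in mature libraries with IL-3, and 217, 223 and 235 CPM in immature and 300.0, 399.7 and 393 CPM in mature libraries with TSLP. The stages of Stat5b did not overlap under either cytokine. It was lower in immature cells by a log2 difference of -0.77 ± 0.18 with IL-3 (adjusted p = 0.00230, edgeR) and of -0.69 ± 0.18 with TSLP (adjusted p = 0.00966, edgeR). The latter call was lost without TSLP immature replicate 1 or 2 and without TSLP mature replicate 2 or 3, at -0.62 to -0.56 and adjusted p of 0.0510 to 0.0658 (edgeR). Between cytokines Stat5b was not called at either stage (mature log2 0.28, 95% interval -0.10 to 0.66, and immature log2 0.36, 95% interval -0.02 to 0.74). With all 12 libraries, no neighbours in its order of levels differed. The nearest to a call were TSLP immature and IL-3 mature (log2 -0.41, adjusted p = 0.0769, edgeR).

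Stat5a was the member with the clearest difference by cytokine in a single direction. It was at 31.5, 42.0 and 43.0 CPM in immature and 43.5, 45.5 and 51.0 CPM in mature libraries with IL-3, and 59.5, 54.3 and 49.7 CPM in immature and 87.1, 68.9 and 84.0 CPM in mature libraries with TSLP. All TSLP mature libraries lay above all others. Among mature cells Stat5a was 1.72-fold higher with TSLP (log2 0.78 ± 0.17, adjusted p = 0.00545, edgeR), a call kept in all 20 alternative settings. Among immature cells the difference was 0.48 (95% interval 0.10 to 0.86) and missed the threshold (adjusted p = 0.0858, edgeR).

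The stage difference of Stat5a was -0.25 with IL-3 (95% interval -0.63 to 0.13, adjusted p = 0.266, edgeR) and -0.55 ± 0.17 with TSLP (adjusted p = 0.0269, edgeR). The latter call was lost in 14 of 21 alternative settings, among them the fits without any 1 of the 3 TSLP immature libraries, without TSLP mature replicate 1 or 3, without IL-3 immature replicate 2 or 3 and without IL-3 mature replicate 2 or 3, where it ranged from -0.56 to -0.39 (adjusted p of 0.0630 to 0.178, edgeR). Leaving out ribosomal RNA also lost the call, both without Rn45s (-0.46, adjusted p = 0.0669, edgeR) and without Rn45s, Rn18s and Rn28s1 (-0.49, adjusted p = 0.0527, edgeR). So did fitting without a count filter (-0.51, adjusted p = 0.117), with a filter of 10 CPM (-0.45, adjusted p = 0.0680) or with only the 2 groups (-0.52, adjusted p = 0.0775, edgeR). The interaction of Stat5a was -0.30 (95% interval -0.83 to 0.23). In its order of levels only TSLP mature differed from its neighbour, TSLP immature.

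Averaged over both stages, a contrast added after the data were seen, 30.9% of all tested genes differed by cytokine and 2 of the 9 members did, both higher with TSLP. These were Stat5a (log2 0.63 ± 0.12, adjusted p = 0.00150, edgeR) and Stat3 (log2 0.47 ± 0.15, adjusted p = 0.0224, edgeR). The call of Stat3 was lost in 7 of 19 alternative settings. These were the fits without IL-3 immature replicate 2 or 3, IL-3 mature replicate 2 or 3 or any 1 TSLP immature library, with the lowest value, 0.32, without IL-3 immature replicate 2 (adjusted p = 0.105, edgeR). Without TSLP mature replicate 1, Jak1 (0.33, adjusted p = 0.0251, edgeR) and Stat5b (0.32, adjusted p = 0.0335, edgeR) were called too.

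Stat3, the factor used by receptors of the IL-6 and IL-10 families, was the lowest per kilobase of the 4 STAT genes among the 9 in every group (6.36 to 10.7 CPM per kb). It was at 39.3, 20 and 26.8 CPM in immature and 33.8, 37.2 and 33.4 CPM in mature libraries with IL-3, and 37.3, 39.9 and 40.5 CPM in immature and 51.5, 46.5 and 47.1 CPM in mature libraries with TSLP. IL-3 immature replicate 1 lay above the other libraries of its group. The stage difference of Stat3 was not called with IL-3 (log2 -0.30, 95% interval -0.75 to 0.15) or with TSLP (log2 -0.30, 95% interval -0.73 to 0.12). Without IL-3 immature replicate 1, Stat3 was called both between stages with IL-3 (-0.55, adjusted p = 0.0348, edgeR) and between cytokines in immature cells (0.74, adjusted p = 0.0337, edgeR).

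Stat6, the factor of the IL-4 and IL-13 receptors, was called between stages with both cytokines and between cytokines at neither stage. It was at 47.5, 48.6 and 57.3 CPM in immature and 145, 144 and 106 CPM in mature libraries with IL-3, and 70.1, 67.2 and 77.6 CPM in immature and 136, 144 and 136 CPM in mature libraries with TSLP. Immature and mature libraries did not overlap. Stat6 was 2.57-fold lower in immature cells with IL-3 (log2 -1.36 ± 0.17, adjusted p = 7.98e-06, edgeR) and 1.94-fold lower with TSLP (log2 -0.95 ± 0.17, adjusted p = 0.000572, edgeR).

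Between cytokines the difference of Stat6 was 0.07 among mature cells (95% interval -0.28 to 0.42) and 0.48 among immature cells (95% interval 0.12 to 0.85, adjusted p = 0.0716, edgeR), where all 3 TSLP libraries lay above all 3 IL-3 libraries, and its interaction was 0.41 (95% interval -0.09 to 0.91). In the order of levels, TSLP immature and IL-3 mature were the only neighbours that differed (log2 -0.88 ± 0.17, adjusted p = 0.000644, edgeR).

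Counted over the 9 genes, 6 differed between stages in IL-3 cultures, against 46.2% of all tested genes, and all 6 were lower in immature cells. In TSLP cultures 5 of the 9 differed by stage, against 25.1% of all tested genes, again all lower in immature cells. Between cytokines, 3 of the 9 differed among mature cells, against 24.3%, and 1 among immature cells, against 13.3%. The median log2 difference of the 9 genes was -0.88 between stages with IL-3 and -0.55 with TSLP, where the median of all tested genes was -0.06 and -0.03. Regardless of sign, the median stage difference of all tested genes was 0.66 with IL-3 and 0.43 with TSLP. Stage differences were thus smaller with TSLP over all tested genes too. Sums of other marker lists moved with stage too. The 10 macrophage and dendritic cell markers summed to 48.0 to 100.4 CPM in immature and 206 to 364 CPM in mature libraries with IL-3, and to 168 to 191 CPM and 589.5 to 1425 CPM with TSLP. The 8 cell cycle genes summed to 1758 to 1876 CPM in immature and 60.9 to 75.8 CPM in mature libraries with IL-3, and to 1293 to 1305 CPM and 167 to 218 CPM with TSLP. The 10 neutrophil markers summed to 852 to 937 CPM in immature and 294 to 415 CPM in mature libraries with IL-3. With TSLP they summed to 421 to 531 CPM in immature libraries. Most of the IL-3 immature sum was Mpo, at 651 to 760 CPM against 0.45 to 2.85 CPM when mature. Lcn2 and Prtn3 were also lower in IL-3 mature libraries, and Elane was at 2.91 CPM or less at both stages. Ngp, Ltf, Camp, S100a8, S100a9 and Retnlg were higher in IL-3 mature libraries, S100a9 at 98.7 to 132 CPM against 18.2 to 40.8 CPM. The part of these cells and of cycling in the stage differences was not tested. Averaged over both cytokines, a contrast also added after the data were seen, 52.3% of all tested genes differed by stage and 7 of the 9 members did, the exceptions being Crlf2 and Stat3. The call of Stat5a in this average (log2 -0.40, adjusted p = 0.0125, edgeR) was lost in 8 of 20 alternative settings, among them the fits without IL-3 immature replicate 1, IL-3 mature replicate 2 or 3, TSLP immature replicate 2 or 3 or TSLP mature replicate 3 (-0.35 to -0.29, adjusted p of 0.0537 to 0.0819, edgeR), and Stat3 was called without IL-3 immature replicate 1 (-0.39, adjusted p = 0.0192, edgeR).

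Between the groups that differ in both stage and cytokine, used only to order the levels, TSLP mature against IL-3 immature called 50.6% of all genes and 8 of the 9 members, and TSLP immature against IL-3 mature called 40.2% and 4 of the 9. On leaving out single libraries these counts of members were 6 to 8 and 3 to 6. The second count was 6 without TSLP mature replicate 1. These comparisons share libraries with those above and are not independent of them.

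**Figure D3:**
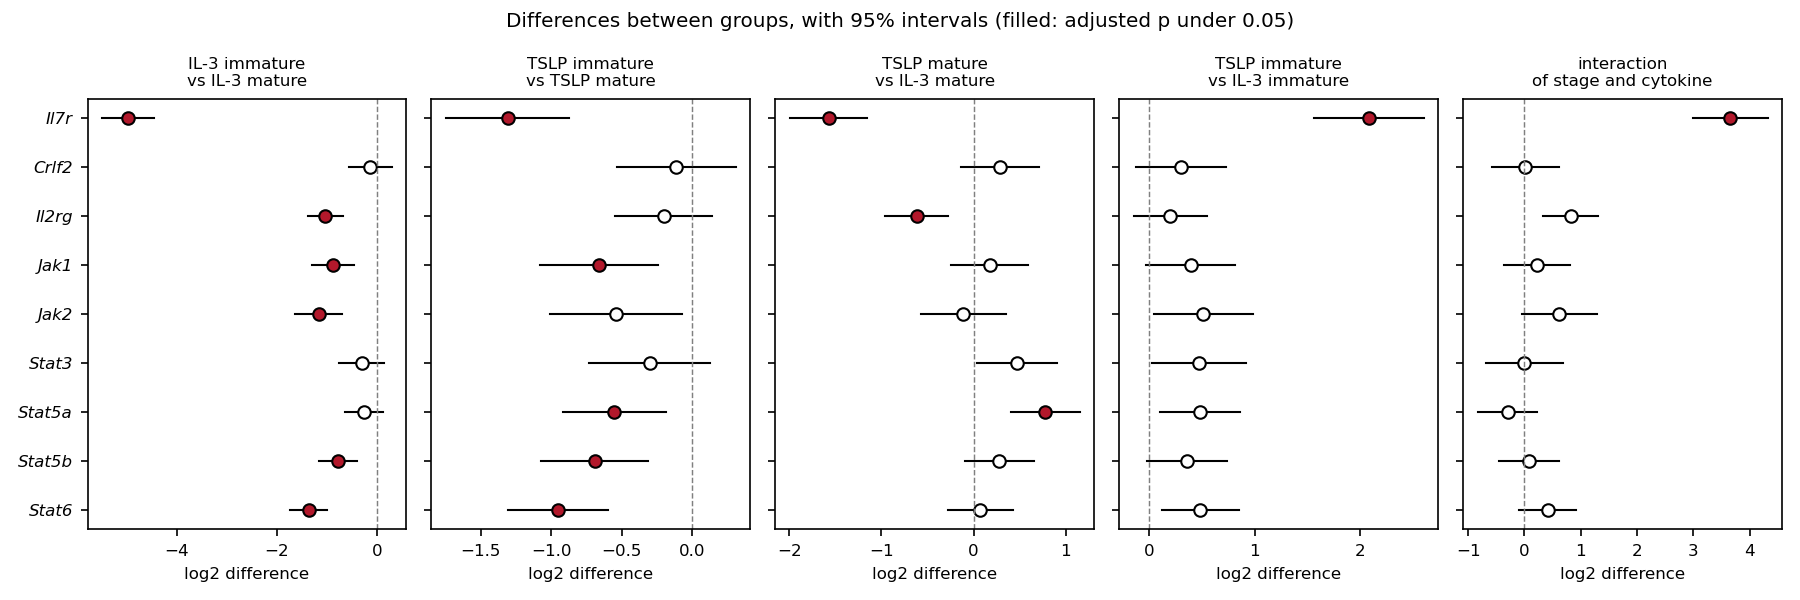
Log2 difference of each of the 9 genes in 4 comparisons and in the interaction of stage and cytokine, with 95% intervals, and with an x scale of its own in each panel. Filled points passed an adjusted p of 0.05. Il7r is the only gene filled in all 5 panels, and it changes sign between the comparison of mature cells (-1.57) and that of immature cells (2.08).

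The genes whose log2 level was most like that of Il7r over the 12 libraries, among 7550 genes averaging 10 CPM or more, were Anpep (Pearson r 0.987), Myadm (0.983), Cxcr2 (0.980), Zscan26 (0.978) and Lpar6 (0.977). Anpep encodes aminopeptidase N, and Cxcr2 a chemokine receptor. Anpep went from 3.05 CPM in IL-3 immature cells to 17.6 in TSLP immature, 59.1 in TSLP mature and 126 in IL-3 mature cells, the same order as Il7r. Since the libraries fall into 4 groups and share their scaling, these values of r describe mainly the 4 group means.

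Among 4 other JAK and STAT genes, Jak3, Tyk2, Stat2 and Stat4, 2 were called between stages with IL-3, against 46.2% of all tested genes. With TSLP 0 were called by edgeR and 0 by DESeq2, with 1 at an unadjusted p under 0.05 in edgeR. The share of all tested genes called there was 25.1% (edgeR). Stat4, the factor of the IL-12 receptor, was lower in IL-3 immature than in IL-3 mature cells (log2 -1.29 ± 0.21, adjusted p = 0.000128, edgeR), as was Stat2, a factor of the type I interferon receptor (-0.58 ± 0.22, adjusted p = 0.0430, edgeR). The Stat2 call was lost in 17 of 21 alternative settings, among them DESeq2 and leaving out any IL-3 immature library (adjusted p up to 0.200). Stat4 was also lower with TSLP among mature cells (-0.59, adjusted p = 0.0403, edgeR), a call lost in 6 of 20 settings, by DESeq2 and without IL-3 mature library 1 or 3 or TSLP mature library 2 among them (adjusted p up to 0.174). Tyk2, at group means of 62.9 to 69.0 CPM, was called in none of these comparisons.

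Of 20 other cytokine receptor chains, 17 were tested. Between stages 11 were called with IL-3 and 9 with TSLP, against 46.2% and 25.1% of all tested genes, and all were lower in immature cells. Those named by size were Il10ra (log2 -2.68 with IL-3 and -1.37 with TSLP), the IL-10 receptor alpha chain, Il4ra (-2.59 with IL-3), the IL-4 receptor alpha chain, and Csf2rb2 (-1.33 with TSLP), a beta chain specific to IL-3 in mice. Between cytokines, 5 of 17 were called among mature cells, against 24.3% of all tested genes, and 2 of the 5 were higher with TSLP. Il3ra, the alpha chain of the IL-3 receptor, was lower with TSLP (-1.42 ± 0.25, adjusted p = 0.00117, edgeR), as was Il10rb (-1.26, adjusted p = 0.00136, edgeR).

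Among immature cells 6 of the 17 receptor chains were called between cytokines, against 13.3% of all tested genes. Of these 6, 5 were higher with TSLP, led by Il4ra (2.4) and Il10ra (2.01). The interaction called 3 of 17, against 4.19% of all tested genes, and each had the smaller stage difference with TSLP, as Il7r did. They were Ifngr2, a chain of the interferon gamma receptor (1.40 ± 0.23, adjusted p = 0.00251, edgeR), Il4ra (1.73 ± 0.40, adjusted p = 0.0222, edgeR) and Il10ra (1.32 ± 0.33, adjusted p = 0.0347, edgeR). The Il4ra interaction was no longer called without IL-3 immature library 3 or IL-3 mature library 2 (adjusted p up to 0.0596, edgeR), and that of Il10ra without IL-3 immature library 1 or 2, IL-3 mature library 2 or 3 or any TSLP immature library (1.13 to 1.74, adjusted p up to 0.0956, edgeR).

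Of 21 feedback inhibitors and phosphatases, all tested, 10 were called between stages with IL-3, against 46.2% of all tested genes. Of these 10, 9 were lower in immature cells. With TSLP 6 of the 21 were called, against 25.1%, all lower in immature cells. With IL-3, Socs3 was at 5.56 ± 0.20 CPM in immature and 262 ± 16.9 in mature cells, and with TSLP at 32.9 ± 5.81 and 157 ± 8.94 (SD, n = 3), the same order of groups as Il7r. Its product inhibits JAK1 and JAK2. The stage difference of Socs3 was -5.54 with IL-3 and -2.26 with TSLP, and that of Socs1, a further JAK inhibitor, was -3.56 and -1.61.

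Cish, a STAT5-induced inhibitor, had another order. With IL-3 it was at 10.8 ± 3.90 CPM in immature and 91.5 ± 9.60 in mature cells, and with TSLP at 118 ± 24.7 and 235 ± 2.74 (SD, n = 3), and was thus higher with TSLP at both stages (log2 3.41 among immature cells, adjusted p = 1.77e-07; 1.36 among mature cells, adjusted p = 0.000509, edgeR). Between cytokines 5 of the 21 were called at either stage, against 13.3% of all tested genes among immature and 24.3% among mature cells. All 5 were higher with TSLP among immature cells, and 3 of 5 among mature cells, where Socs3 was lower with TSLP (-0.74, adjusted p = 0.00428, edgeR). The interaction called 4.19% of all tested genes and 4 of the 21, Cish, Socs1, Socs2 and Socs3, all with the smaller stage difference with TSLP. The call of Socs2 (2.03) was lost on leaving out IL-3 immature library 1 or 2, any IL-3 mature library, TSLP immature library 1 or 2 or TSLP mature library 2 (adjusted p up to 0.146, edgeR).

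Of 16 genes known as STAT5 targets, 15 were tested. Between stages 13 were called with IL-3, against 46.2% of all tested genes, and 11 of the 13 were lower in immature cells. With TSLP 7 were called, against 25.1%, all lower in immature cells. Ccnd2, which encodes cyclin D2, was lower in immature cells under both cytokines (-3.47 with IL-3 and -2.15 with TSLP). Between cytokines 8 of 15 were called among immature cells, against 13.3% of all tested genes, all higher with TSLP. Among mature cells 6 were called, against 24.3%, and 4 of the 6 were higher with TSLP. In immature cells Lif, an IL-6 family cytokine, was at 1.28 ± 0.69 CPM with IL-3 and 119 ± 9.60 CPM with TSLP (SD, n = 3; log2 6.61, adjusted p = 5.17e-09, edgeR).

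Pim2, a survival kinase, was higher with TSLP among immature cells (log2 2.67, adjusted p = 3.95e-07, edgeR). Among mature cells Lif (2.52) and Myc (1.79), a driver of cell growth, had the largest called differences of the list. Id1 (-1.52) had its second largest stage difference with TSLP, after Ccnd2. The interaction called 4.19% of all tested genes and 6 of the 15, Pim1, Pim2, Ccnd2, Osm, Lif and Cdkn1a, each with the smaller stage difference with TSLP. The call of Cdkn1a was lost without TSLP immature library 2 (adjusted p = 0.0512, edgeR). The median interaction of the 15 genes was 1.10 on the log2 scale, against 0.22 over the 9 receptor, JAK and STAT genes and 0.02 over all tested genes. Because the lists were chosen with earlier results of these data known, these medians do not test a difference between the lists. STAT5 activity itself was not measured, and many of these targets also respond to other factors.

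**Figure D4:**
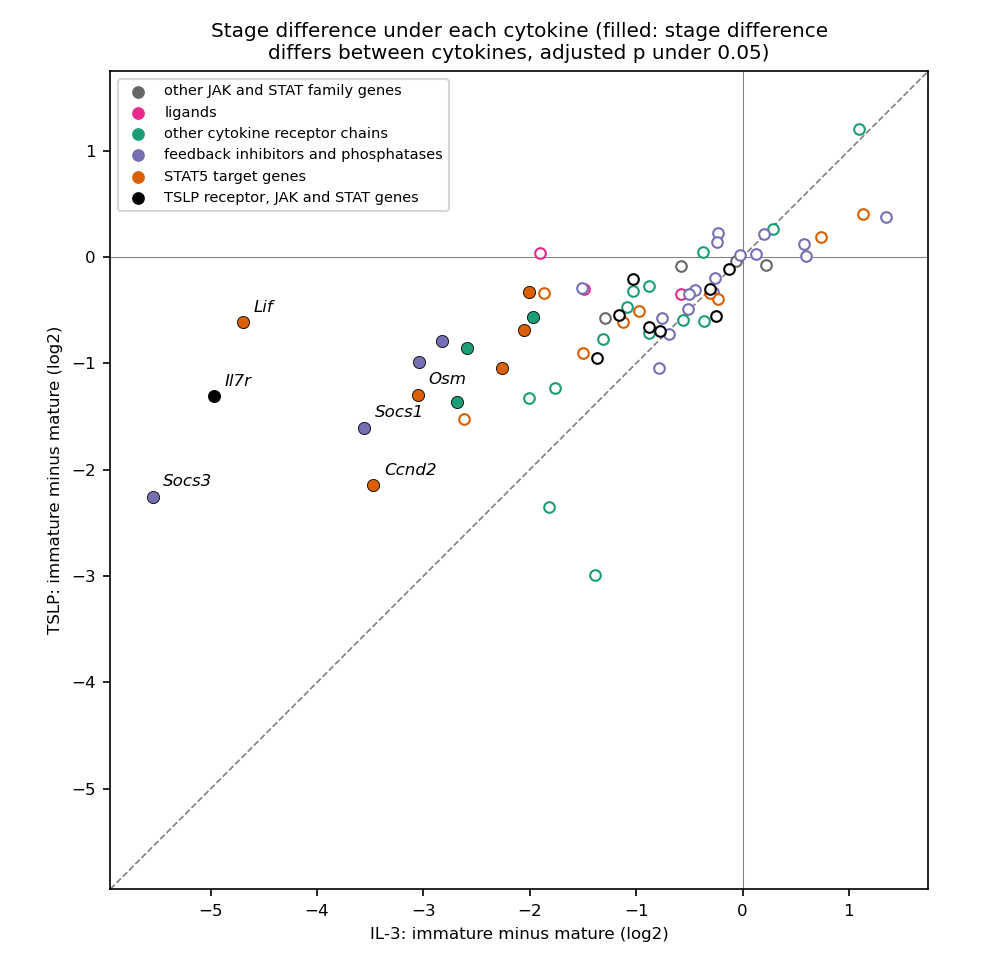
Log2 difference between immature and mature cells with IL-3 (x axis) and with TSLP (y axis) for the 9 genes and the tested genes of the pathway lists, coloured by list. The dashed line marks equal differences, and filled points had an interaction with adjusted p under 0.05. Il7r (-4.96 with IL-3, -1.31 with TSLP) is the only filled point among the 9 genes, and all filled points lie above the line, where the difference with TSLP is nearer 0. Over all tested genes the median absolute stage difference was also smaller with TSLP, 0.43 against 0.66 with IL-3.

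Of 9 ligands, 3 were tested. Between stages, 46.2% of all tested genes were called with IL-3 and 25.1% with TSLP. Il4, Il13 and Il15 were all lower in IL-3 immature than in IL-3 mature cells (Il4 -1.49, adjusted p = 0.000506; Il15 -0.57, adjusted p = 0.0157, edgeR) while 0 were called between stages with TSLP by edgeR and 0 by DESeq2, with 0 at an unadjusted p under 0.05 in edgeR. Il15 was higher with TSLP among immature (0.80, adjusted p = 0.00813, edgeR) and mature cells (0.58, adjusted p = 0.0242, edgeR). Its calls depended on single libraries. The IL-3 stage call was lost without IL-3 immature library 2 or 3 or IL-3 mature library 1 (adjusted p up to 0.115, edgeR), that among mature cells without IL-3 mature library 2 or 3, TSLP immature library 2 or TSLP mature library 3 (up to 0.147, edgeR), and that among immature cells without TSLP immature library 3 (adjusted p = 0.0509, edgeR). Tslp had 5 counts and Csf2 7 counts over all 12 libraries, and Il2, Il3, Il5 and Il7 had 0 counts.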

How the data were processed

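RNA of sorted cells was captured with oligo(dT) beads, amplified, fragmented and sequenced on an Ion Proton. Per the study's methods, the authors trimmed reads with Cutadapt, aligned them with Bowtie2 to mouse reference transcripts of GRCm38 and counted reads per gene. The labels name GRCm39 and mm10 instead. The labels give the TSLP concentration in 2 ways, and that of the treatment protocol is used. The authors deposited raw counts, not normalized. 1 row without a gene name held the column totals, that is 50% of each column, and was left out.

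Members and gene lists were chosen with earlier results of these data known. 1 gene of the pathway lists and the value of 1 marker are not reported here. Genes were kept by filterByExpr (minimum count 10, minimum total 15), scaled by TMM over all 12 libraries, and tested with the edgeR 4.0.16 quasi-likelihood test (R 4.3.3), with 1 mean per group and Benjamini-Hochberg adjustment over all tested genes. The threshold was an adjusted p of 0.05. The study used TCC, in whose place edgeR stands here. The procedure was also run on simulated counts with few changed genes and with the spread that edgeR had fitted. Many more genes were called in the real counts, so that run does not vouch for the calls given here. Coordinates and transcripts are from GENCODE for GRCm38, and promoters from RefSeq. All members were named, and from each list up to 2 called genes of the largest change per comparison with a mean of at least 10 CPM, and every gene called in the interaction. Alternatives were DESeq2 1.42.0, scaling on uncalled genes, leaving out ribosomal RNA, other filters, a replicate block, 2-group fits and leaving out each library. Groups held 3 libraries of 1720065 to 3685285 counts.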

Additional observations from a re-analysis of the deposited data

Results flagged for a closer look

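The stage difference (immature minus mature) differed between cytokines for 14 of the genes reported, by the edgeR test of interaction on the log2 scale, in which positive values mean a less negative difference with TSLP. Il7r had an interaction of 3.65 ± 0.31. Of the receptor chains, Il4ra had 1.73, Ifngr2 1.40 and Il10ra 1.32. Of the feedback inhibitors, Socs3 had 3.29, Cish 2.05, Socs2 2.03 and Socs1 1.95. Of the STAT5 targets, Lif had 4.09, Osm 1.75, Pim1 1.69, Cdkn1a 1.37, Ccnd2 1.32 and Pim2 1.21. The adjusted p of Il7r was 8.35e-06 and that of the weakest call, Il10ra, 0.0347 (edgeR). Over all tested genes the median absolute stage difference was 0.66 with IL-3 and 0.43 with TSLP.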

How the results depend on the processing

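Of 16 called values of the 9 genes in the 4 comparisons and the interaction, 12 kept their call in every alternative, 4 lost it in some and none changed direction. Those lost were Jak1, Stat5a and Stat5b between TSLP stages and Il2rg among mature cells. The number called between TSLP stages was 5, fell to 3 when only these 2 groups were fitted, and was 2 to 5 on leaving out single libraries. It was 4 without Rn45s, without Rn45s, Rn18s and Rn28s1, without a count filter and with a filter of 10 CPM, and 6 with a replicate block. The number called in the interaction was 1, and 2 without the ribosomal RNA genes, with a filter of 10 CPM, with a replicate block and by DESeq2, the added gene each time being Il2rg; on leaving out single libraries it was 1 to 2. Between immature cells it was 1, and 1 to 2 without single libraries. With the replicate block Jak2 was also called between TSLP stages (adjusted p = 0.0446, edgeR). Of 44 values of other pathway genes named in the text, 35 kept their call in every alternative, 9 lost it in some and 0 changed direction. Between TSLP and IL-3, over the alternatives, the feedback inhibitors called were 3 to 6 among mature and 3 to 7 among immature cells (5 in each), and between TSLP stages 3 to 7 (6); receptor chains called were 3 to 5 among mature cells (5) and 1 to 4 in the interaction (3). In no pair of groups did all 3 same-numbered pairs of libraries correlate above 0.1 in their deviations from the group means (-0.08 to 0.39 over all). The numbers were therefore not taken as pairs in the main fit. Of 6 libraries per pair of groups, 6 correlated best with their own number between IL-3 immature and TSLP immature. The count was 5 between TSLP immature and TSLP mature and between IL-3 immature and TSLP mature, and 2 or 3 in the other pairs of groups. This is a hint from the data and not the design, and pairing is not excluded.

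Values near 0 that were not called changed sign. The interaction of Stat3 (-0.0016) was 0.00084 with scaling on uncalled genes, 0.0089 without Rn45s, 0.051 without Rn45s, Rn18s and Rn28s1, 0.017 with the replicate block, 0.025 with the replicate block by culture and -0.20 to 0.32 without single libraries. That of Crlf2 (0.017) was -0.036 without a count filter, -0.021 by DESeq2 and -0.16 to 0.18 without single libraries, and that of Stat5b (0.08) -0.012 to 0.24. Among mature cells Stat6 (0.07) was -0.012 without the ribosomal RNA genes and -0.12 to 0.15 without single libraries, and Jak2 -0.32 to 0.028. The stage difference of Crlf2 was -0.24 to 0.10 with TSLP and -0.16 to 0.011 over both cytokines. The cause was not tested. Leaving out the ribosomal RNA genes and averaging contrasts were chosen after seeing the data. Stat3 and Stat5a, the least counted of the 4 STAT genes among the 9, had 65 to 323 counts per library for Stat5a and 70 to 191 for Stat3, which limits small differences.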
